A study of Mus musculus with 44 samples.

Results

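The genes described here are 10 regulators of fuel use and mitochondrial content in heart muscle: the nuclear receptors Ppara, Ppard and Pparg with their partner Rxra, the coactivators Ppargc1a and Ppargc1b, the estrogen-related receptors Esrra and Esrrb, and the mitochondrial gene regulators Nrf1 and Tfam. They were chosen by gene symbol in the platform annotation, and all 10 were found among the 12394 genes tested, on 18 of the 22690 probe sets of the array. Ppargc1a had 5 probe sets, Nrf1 had 3, Esrrb and Rxra had 2 each, and each of the other members had 1. Left ventricles came from 44 mice, with 1 Affymetrix 430A 2.0 array each, in 4 groups on the FVB/N background. The PKCε mice carried a constitutively active (A159E) rabbit PKCε transgene under the mouse Myh6 promoter, which restricts it to cardiomyocytes, and serve as a model of dilated cardiomyopathy. The FVB mice were nontransgenic animals bought from a vendor and not described as littermates of the transgenic mice. The antibody FG-3149 binds CTGF, the connective tissue growth factor, and nonimmune mouse IgG was its control. The groups were 12 PKCε mice given FG-3149 (6 female, 6 male), 10 PKCε mice given IgG (5 female, 5 male), 12 FVB mice given FG-3149 (6 female, 6 male) and 10 FVB mice given IgG (7 female, 3 male). All mice received 30 mg/kg into the peritoneum 2 times a week for 3 months, starting at 3 months of age, so that tissue was taken at 6 months.

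As background, PPARα, β/δ (Ppard) and γ are receptors for fatty acids and their derivatives that bind DNA as pairs with RXR, and in heart muscle they switch on genes for fatty acid uptake and β-oxidation. PGC-1α and PGC-1β (Ppargc1a, Ppargc1b) bind no DNA themselves. They dock on PPARs, on ERRα (Esrra) and related orphan receptors and on nuclear respiratory factor 1 (Nrf1), and raise transcription of genes for the citric acid cycle, the respiratory chain and the mitochondrial genome factor Tfam. Cardiomyocytes, which depend on mitochondrial ATP, carry this network at high levels in the adult.

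Promoters are shown for the 4 members that were lower in PKCε than in FVB hearts under both antibodies (below). Each holds a match to a short motif that was chosen for that gene. RefSeq windows (build GRCm38.p6, 300 bases ending past the annotated start) were matched for 9 of the 10 members, giving 14 promoters. Both strands were searched for TGACG, the core of the cAMP response element bound by CREB and ATF2, for GCATGCGC, a core of the nuclear respiratory factor 1 site, and for CCGGAAGT, a site for ETS factors such as GABP. Capitals mark only the match described next for each promoter, so the TGACG that Ppara also holds is in lower case. Positions count back from the start, -1 being the base before it. The Ppargc1a promoter (chr5:51567676-51567975, minus strand) holds TGACG on its other strand at -49 to -45. The Ppara promoter (chr15:85735526-85735825, plus strand) holds GCATGCGC on both strands, overlapping, at -31 to -22. The Esrra promoter (chr19:6921759-6922058, minus strand) holds it at -34 to -27, and the Tfam promoter (chr10:71237995-71238294, minus strand) holds CCGGAAGT at -47 to -40.
Ppargc1a: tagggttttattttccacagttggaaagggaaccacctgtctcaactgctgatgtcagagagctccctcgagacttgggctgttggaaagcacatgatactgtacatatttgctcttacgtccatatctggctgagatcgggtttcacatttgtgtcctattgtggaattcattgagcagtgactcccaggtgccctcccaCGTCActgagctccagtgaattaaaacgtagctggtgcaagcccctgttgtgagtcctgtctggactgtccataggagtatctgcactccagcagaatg
Ppara: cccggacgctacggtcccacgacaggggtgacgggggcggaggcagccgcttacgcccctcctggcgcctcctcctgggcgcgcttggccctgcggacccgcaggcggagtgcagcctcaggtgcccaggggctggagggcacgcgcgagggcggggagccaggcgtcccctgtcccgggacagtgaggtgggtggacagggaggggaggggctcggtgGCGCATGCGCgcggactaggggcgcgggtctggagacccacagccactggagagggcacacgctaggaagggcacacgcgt
Esrra: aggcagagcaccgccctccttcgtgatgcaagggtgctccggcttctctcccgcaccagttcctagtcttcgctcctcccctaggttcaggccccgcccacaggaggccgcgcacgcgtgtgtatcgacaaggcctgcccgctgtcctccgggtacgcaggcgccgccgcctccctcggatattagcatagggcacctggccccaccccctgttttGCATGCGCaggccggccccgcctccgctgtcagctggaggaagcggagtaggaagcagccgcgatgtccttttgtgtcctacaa
Tfam: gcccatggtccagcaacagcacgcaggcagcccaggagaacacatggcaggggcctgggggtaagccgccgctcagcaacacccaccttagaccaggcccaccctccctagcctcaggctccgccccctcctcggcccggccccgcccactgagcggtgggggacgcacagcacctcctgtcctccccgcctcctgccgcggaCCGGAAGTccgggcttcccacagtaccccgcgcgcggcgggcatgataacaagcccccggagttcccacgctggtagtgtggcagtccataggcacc
TGACG was in 20.8% of all 32851 promoters of that length and in 4 of the 14 member promoters (Ppargc1a, Ppara, Ppard and 1 of Esrrb). GCATGCGC was in 2.71% of all promoters and in 2 of the 14 (Ppara and Esrra), and CCGGAAGT was in 3.89% and in 1 of the 14 (Tfam). The estrogen-related receptor element TCAAGGTCA (0.423% of all promoters) and the direct repeat bound by PPAR and RXR (AGGTCA, any base, AGGTCA, in 0.0396%) were in none of the 14. A match is only a description of these letters.

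The deposited values are ratios of each probe set to its own median over the arrays, so brightness and signal over background are unknown, the number of arrays limits the precision, and levels of different genes cannot be set against each other. All values below are log2 of that ratio, and differences are log2 differences. After ±, a group mean has the SD over its arrays, and a difference has its standard error from the limma fit. The rabbit transgene and its mouse counterpart could not be separated on the Prkce probe set, which averaged 0.22 and 0.075 in the PKCε FG-3149 and PKCε IgG groups, against -0.19 and -0.45 in the FVB FG-3149 and FVB IgG groups. Some libraries stood apart. Atrial markers (mean of Sln, Myl7 and Myl4) were above 4 on 10 arrays labelled left ventricle, of which 2 were PKCε FG-3149, 2 PKCε IgG, 1 FVB FG-3149 and 5 FVB IgG, and lung markers were high on 2 PKCε IgG arrays (replicates 9 and 10). The mean of 8 adipocyte markers lay between -0.23 and -0.11 in the PKCε FG-3149, PKCε IgG and FVB FG-3149 groups and was 1.26 ± 1.20 in FVB IgG hearts. Mouse numbers ran from 38 to 191 in the PKCε FG-3149 group, 192 to 362 in PKCε IgG, 338 to 349 in FVB FG-3149 and 420 to 443 in FVB IgG, so the order in which mice were numbered and the groups cannot be told apart. Within PKCε IgG, the males were mice 192 to 196 and the females 322 to 362. Sex and mouse number therefore cannot be told apart in that group, and both of its arrays with lung markers were from females.

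The first question was how PKCε hearts differed from FVB hearts, under IgG and under FG-3149, and differences between the lines are given as PKCε minus FVB. Under IgG, 5 of the 10 members fell (Ppargc1a, Ppara, Tfam, Esrra and Ppargc1b) and Nrf1 rose. These 6 calls by limma stand beside a background of 42.2% of all genes called at an adjusted p under 0.05, 21.5% of all genes being lower and 20.7% higher. The median difference of the members was -0.20, against -0.046 for all genes. Under FG-3149, 6 members fell (Esrra, Tfam, Ppargc1a, Ppara, Pparg and Ppard) and none rose. Of all genes, 47.0% were called and 25.5% were called lower. The median difference of the members was -0.22, against -0.048 for all genes. The groups compared under FG-3149 and under IgG had no arrays in common. Both comparisons came from the same fit, with a shared sex term and spread over all arrays, so their tests are not independent. Ppara, Ppargc1a, Esrra and Tfam were called lower in both comparisons. In bulk tissue, fewer cardiomyocytes and less RNA per cardiomyocyte cannot be told apart. The mean of 10 ventricular cardiomyocyte markers was -0.094 ± 0.072 in PKCε FG-3149 hearts and -0.19 ± 0.12 in PKCε IgG hearts. It was 0.11 ± 0.050 in FVB FG-3149 and 0.049 ± 0.17 in FVB IgG hearts. The markers did not move as one. Of these, 4 fell and 1 rose under IgG, and 5 fell and 1 rose under FG-3149. Their median differences were -0.060 and -0.13, and under IgG they ran from -1.49 (Myh6) to 0.31 (Mybpc3). All 7 fibroblast markers were higher in PKCε hearts under both antibodies, with means of 0.48 and 0.77 against -0.64 and -0.33. The part of either cell type in the differences was not tested. The gap between the 3′ and 5′ control probe sets of Gapdh, which widens in degraded RNA, also moved with the line, at 0.037 ± 0.11 in PKCε FG-3149 and 0.30 ± 0.25 in PKCε IgG hearts, against -0.13 ± 0.20 in FVB FG-3149 and -0.035 ± 0.078 in FVB IgG hearts. With it as a covariate, the same 5 members were lower under IgG and Nrf1 was no longer called (0.39 ± 0.19, adjusted p = 0.115), and under FG-3149 Ppargc1b joined the 6 (-0.24 ± 0.089, adjusted p = 0.0310).

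**Figure D1:**
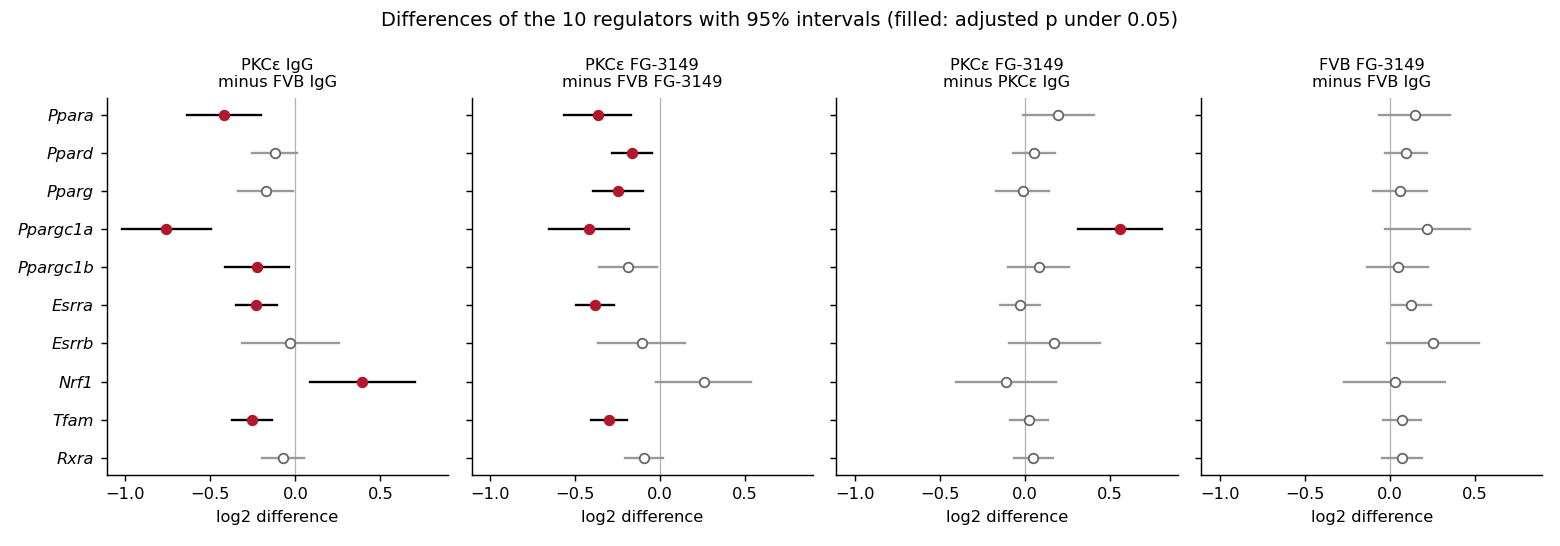
Differences of the 10 members in 4 comparisons of group means, as log2 difference on the horizontal axis with 95% intervals. Filled points passed an adjusted p of 0.05 in limma. Ppargc1a has the lowest value under IgG (-0.76) and is the only filled point in the comparison of FG-3149 with IgG in PKCε hearts (0.56).

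Ppargc1a, the inducible coactivator of the network, showed the largest differences of the 10 members under IgG and under the antibody in PKCε hearts. Its lead probe set (1437751_at) ran from -0.39 to 0.49 (median -0.048) in PKCε FG-3149 hearts, from -0.89 to -0.19 (median -0.55) in PKCε IgG hearts, from -0.16 to 1.17 (median 0.37) in FVB FG-3149 hearts and from -0.12 to 0.53 (median 0.24) in FVB IgG hearts. Every PKCε IgG array was below every FVB IgG array, and 11 of the 12 PKCε FG-3149 arrays were above every PKCε IgG array. The mean was 0.017 ± 0.25 in PKCε FG-3149 (SD, n = 12), -0.54 ± 0.22 in PKCε IgG (n = 10), 0.44 ± 0.40 in FVB FG-3149 (n = 12) and 0.20 ± 0.26 in FVB IgG hearts (n = 10). The order from high to low was thus FVB FG-3149, FVB IgG, PKCε FG-3149 and PKCε IgG. The difference between FVB FG-3149 and FVB IgG was not called (0.22 ± 0.12, limma, adjusted p = 0.300). Of the 12 FVB FG-3149 arrays, 4 were above every FVB IgG array and 1 was below every one. The ranges of PKCε FG-3149 and FVB IgG overlapped. Under IgG, Ppargc1a was 1.69-fold lower in PKCε than in FVB hearts, a difference of -0.76 ± 0.13 (limma, adjusted p = 6.17e-06, 95% interval -1.02 to -0.50). It was the only member whose groups did not overlap in that comparison, where 4.38% of all genes did not. Under FG-3149 it was 1.34-fold lower in PKCε than in FVB hearts, with -0.42 ± 0.12 (adjusted p = 0.00334) and 11 of 12 PKCε arrays below the FVB median.

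**Figure D2:**
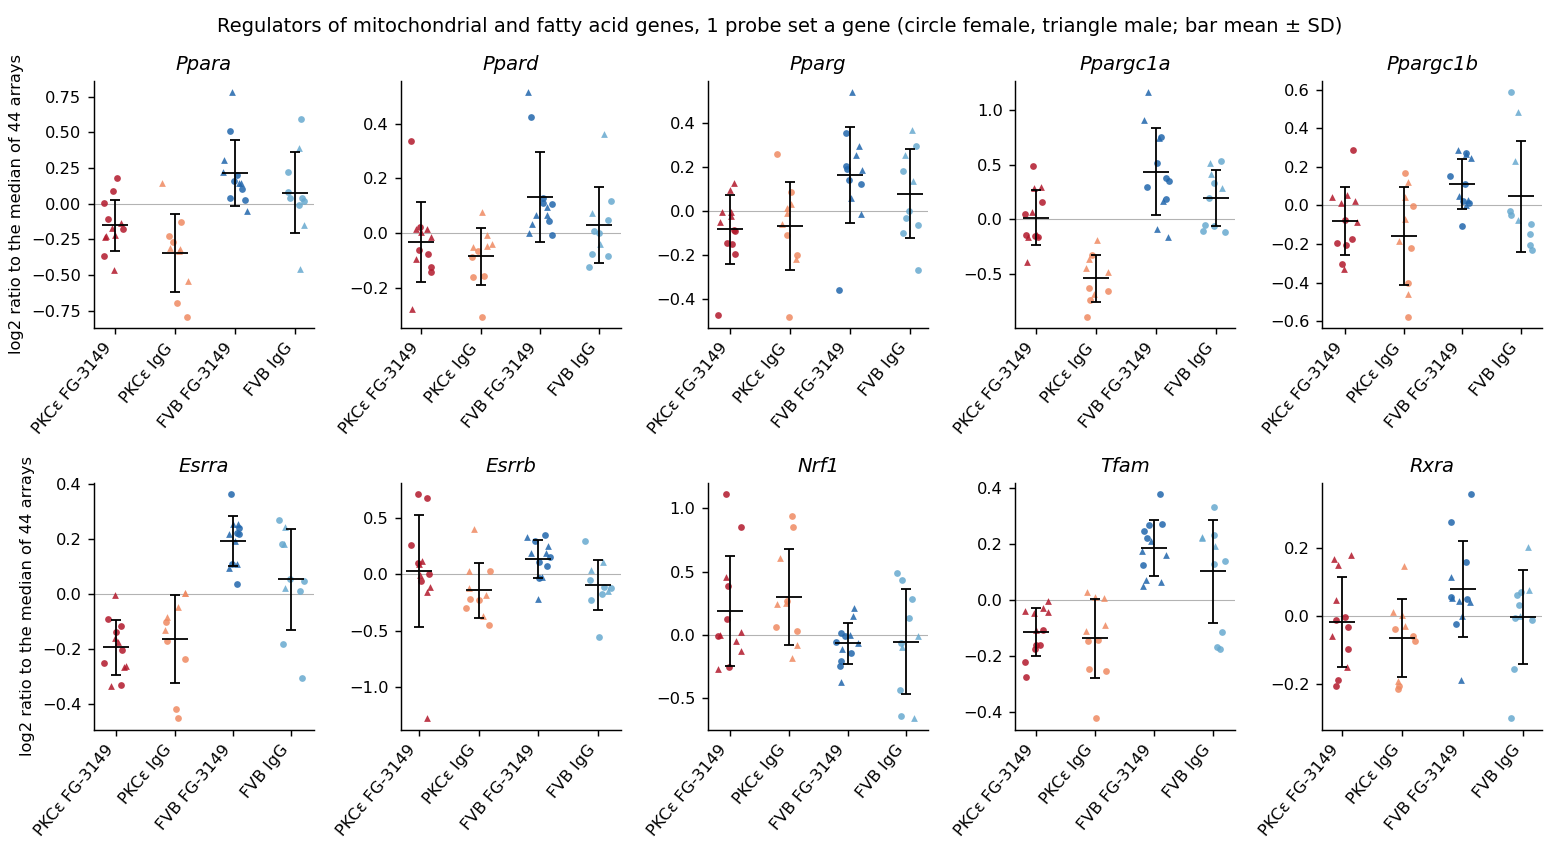
Log2 ratio of the lead probe set of each member on each of the 44 arrays, by group. Circles are females, triangles are males, and bars give the group mean ± SD. For Ppargc1a, the PKCε IgG arrays lie between -0.89 and -0.19 and the FVB IgG arrays between -0.12 and 0.53.

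The comparison of FG-3149 with IgG within PKCε hearts asks how the regulators differed with the CTGF antibody in the diseased ventricle. Blocking of CTGF itself was not measured here. It shares the PKCε IgG arrays with the IgG comparison of the lines, so the values are not independent of each other. Ppargc1a was the only member called, 1.47-fold higher with FG-3149 at 0.56 ± 0.12 (limma, adjusted p = 0.00268, 95% interval 0.31 to 0.80), where 8.82% of all genes were called and 5.08% were higher. All 12 PKCε FG-3149 arrays were above the median of the PKCε IgG arrays, no member was without overlap, and 0.113% of all genes were. In females, the mean was 0.041 with FG-3149, against -0.65 with IgG, and in males it was -0.0074 with FG-3149, against -0.43 with IgG. A fit of males alone gave 0.43 ± 0.20 (adjusted p = 0.491) and a fit of females alone 0.69 (adjusted p = 0.00431), while the test of the difference between the sexes gave 0.26 ± 0.25 (adjusted p = 0.811). In PKCε IgG hearts sex went with mouse number, and both arrays with lung markers were from females. The score of 11 circadian clock genes, with the Per, Dbp-family and Nr1d genes counted positive and Arntl, Clock and Npas2 negative, also differed between these arms, at 1.07 ± 0.97 in PKCε FG-3149 and -0.82 ± 0.71 in PKCε IgG hearts. With that score as a covariate, added after the values were seen, the Ppargc1a difference was 0.68 ± 0.16 (adjusted p = 0.0129). With the Gapdh gap, which also differed between these arms, as a covariate, the difference was 0.51 (adjusted p = 0.0306). It was 0.46 (adjusted p = 0.0270) without the 10 arrays with high atrial markers and 0.57 (adjusted p = 0.00814) without the 2 with lung markers.

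The 5 probe sets of Ppargc1a gave the same directions and differed in size. Fitted one by one among all 22690 probe sets, they ranged from -0.53 to -0.76 for PKCε IgG minus FVB IgG, with adjusted p between 8.1e-07 and 0.000484, where 40.9% of all probe sets were called. On 3 of the 5 the groups did not overlap. For PKCε FG-3149 minus FVB FG-3149 they ranged from -0.40 to -0.48 (adjusted p from 0.000384 to 0.0035 with a background of 45.2%). The antibody difference within PKCε hearts depended on the probe set. It was called on the lead probe set at 0.56 (adjusted p = 0.00288) and on 1460336_at at 0.46 (adjusted p = 0.0045), with 8.4% of all probe sets called. It did not pass on 1456395_at at 0.34 (adjusted p = 0.0515), on 1434100_x_at at 0.27 (adjusted p = 0.127) or on 1434099_at at 0.23 (adjusted p = 0.266). On 1434099_at, 2 of the 12 PKCε FG-3149 arrays were above every PKCε IgG array, and on 1460336_at this held for 7. After the means of the 8 cells of group and sex were subtracted, Pearson's r between pairs of these probe sets over the 44 arrays ran from 0.64 to 0.93, as a description of values that share their arrays. The mean of the 5 probe sets gave 0.37 (adjusted p = 0.0167) within PKCε hearts.

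**Figure D3:**
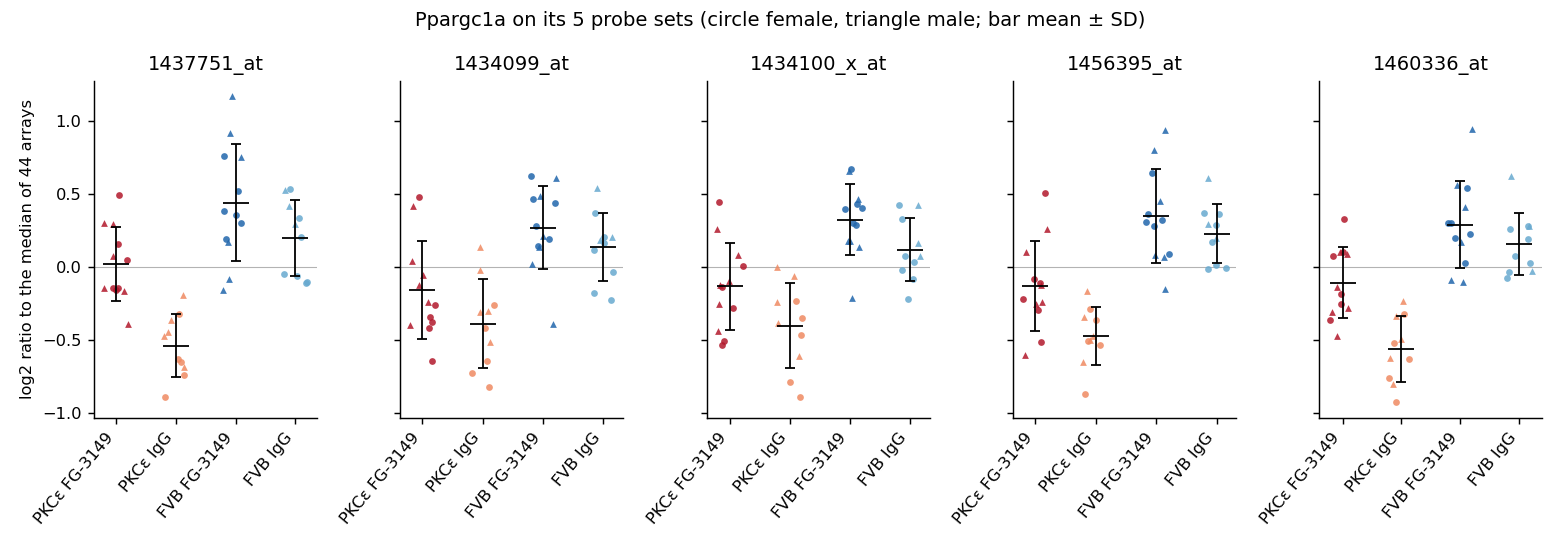
Log2 ratio of the 5 Ppargc1a probe sets on each array, by group, with females as circles, males as triangles and bars for the mean ± SD. PKCε IgG hearts have the lowest mean on every probe set (-0.39 to -0.57), and the distance to PKCε FG-3149 hearts is widest on 1437751_at (0.56) and narrowest on 1434099_at (0.23).

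Ppargc1b, the second coactivator of the family, ran from -0.33 to 0.29 (median -0.081) in PKCε FG-3149, -0.58 to 0.17 (median -0.13) in PKCε IgG, -0.11 to 0.29 (median 0.079) in FVB FG-3149 and -0.23 to 0.59 (median -0.063) in FVB IgG hearts. The groups overlapped widely, and 6 of 10 PKCε IgG arrays were below the FVB IgG median. The difference under IgG was -0.23 ± 0.094 and passed narrowly (limma, adjusted p = 0.0487). That call was lost in 10 of 19 alternative settings and when any 1 of 27 of the 44 arrays was left out, with adjusted p from 0.0185 to 0.127 over the fits that left out 1 array. Under FG-3149 the difference was -0.19 ± 0.085 (adjusted p = 0.0607), and FG-3149 minus IgG in PKCε hearts was 0.078 ± 0.089 (adjusted p = 0.675, 95% interval -0.10 to 0.26).

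Ppara, the main PPAR of the oxidative heart, fell in PKCε hearts under both antibodies. It ran from -0.47 to 0.18 (median -0.17) in PKCε FG-3149, -0.79 to 0.15 (median -0.32) in PKCε IgG, -0.050 to 0.78 (median 0.15) in FVB FG-3149 and -0.46 to 0.60 (median 0.038) in FVB IgG hearts. The groups overlapped, but 9 of 10 PKCε IgG arrays were below the FVB IgG median and 11 of 12 PKCε FG-3149 arrays were below the FVB FG-3149 median. The differences were -0.42 ± 0.11 under IgG (1.34-fold lower, adjusted p = 0.00176) and -0.37 ± 0.098 under FG-3149 (1.29-fold lower, adjusted p = 0.00228). Fitted in males alone, the IgG difference was -0.20 (adjusted p = 0.536), and in females alone the FG-3149 difference was -0.23 (adjusted p = 0.137). Within PKCε hearts, FG-3149 minus IgG was 0.20 ± 0.10 (adjusted p = 0.257), with 10 of 12 FG-3149 arrays above the IgG median.

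Ppard, which shares many PPARα targets in heart muscle, had narrow ranges: -0.28 to 0.34 (median -0.039) in PKCε FG-3149, -0.31 to 0.077 (median -0.059) in PKCε IgG, -0.0080 to 0.52 (median 0.082) in FVB FG-3149 and -0.12 to 0.36 (median 0.0036) in FVB IgG hearts. Under FG-3149, 11 of 12 PKCε arrays were below the FVB median, and the difference of -0.17 ± 0.058 passed the test (1.12-fold lower, adjusted p = 0.0193). Under IgG it was -0.12 ± 0.064 (adjusted p = 0.119). The antibody difference within PKCε hearts was 0.051 ± 0.061 (adjusted p = 0.691).

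Pparg, the adipocyte receptor, which heart muscle carries at low levels, ran from -0.47 to 0.13 (median -0.065) in PKCε FG-3149, -0.48 to 0.26 (median -0.032) in PKCε IgG, -0.36 to 0.54 (median 0.19) in FVB FG-3149 and -0.27 to 0.37 (median 0.070) in FVB IgG hearts. All 12 PKCε FG-3149 arrays were below the FVB FG-3149 median, and Pparg fell there by 0.25 ± 0.073 on the log2 scale (1.19-fold lower, adjusted p = 0.00554). Under IgG the difference was -0.18 ± 0.081 (adjusted p = 0.0753). This value crossed the threshold in 4 alternative settings, among them leaving out the 2 arrays with lung markers (-0.24, adjusted p = 0.0217), and when FVB IgG replicate 2 or PKCε IgG replicate 7 or 10 was left out. Adipocyte content moved with the FVB IgG group: 7 of the 8 adipocyte markers were lower in PKCε IgG than in FVB IgG hearts, and Adipoq, the fat hormone adiponectin, differed by -2.25 ± 0.49 (adjusted p = 0.000219). With the adipocyte marker mean as a covariate the Pparg difference under IgG was -0.17 ± 0.11 (adjusted p = 0.201). Between the FG-3149 arms none of the 8 markers was called, and Adipoq differed by 0.25 (adjusted p = 0.645). The atrial gene Myl7 and the lung surfactant gene Sftpc differed by -3.49 (adjusted p = 0.0504) and 1.39 (adjusted p = 0.0700) under IgG.

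Rxra, the shared DNA-binding partner of the PPARs, passed no test of a group difference on its lead probe set. Its group medians lay between -0.048 and 0.052, with arrays from -0.30 to 0.36. PKCε minus FVB was -0.072 ± 0.060 under IgG (adjusted p = 0.330) and -0.096 ± 0.054 under FG-3149 (adjusted p = 0.138). Its other probe set (1454773_at) gave -0.088 (adjusted p = 0.181) and -0.14 (adjusted p = 0.0210), and the pair had a residual r of -0.049 over the 44 arrays.

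Esrra, whose product ERRα drives citric acid cycle and respiratory chain genes with PGC-1, separated the lines most clearly under FG-3149. It ran from -0.33 to -0.0045 (median -0.19) in PKCε FG-3149, -0.45 to 0.0047 (median -0.12) in PKCε IgG, 0.035 to 0.36 (median 0.22) in FVB FG-3149 and -0.30 to 0.27 (median 0.052) in FVB IgG hearts. Every PKCε FG-3149 array was below every FVB FG-3149 array, and all 10 PKCε IgG arrays were below the FVB IgG median. Esrra and Tfam were the 2 members without overlap under FG-3149, against 5.25% of all genes. The differences were -0.38 ± 0.054 under FG-3149 (1.31-fold lower, adjusted p = 2.51e-07) and -0.23 ± 0.060 under IgG (1.17-fold lower, adjusted p = 0.00198; males alone, -0.20, adjusted p = 0.0658). Within PKCε hearts, FG-3149 minus IgG was -0.031 ± 0.057 (adjusted p = 0.824, 95% interval -0.15 to 0.085). In FVB hearts the same contrast was 0.12 ± 0.058 (adjusted p = 0.188).

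Esrrb, the related receptor best known from pluripotent cells, showed no called difference on its lead probe set (1436926_at), but the spread was uneven. PKCε FG-3149 arrays ran from -1.28 to 0.72 (median 0.048), PKCε IgG from -0.45 to 0.40 (median -0.20), FVB FG-3149 from -0.22 to 0.36 (median 0.17) and FVB IgG from -0.55 to 0.30 (median -0.12). Within PKCε FG-3149, females averaged 0.29 ± 0.34 and males -0.22 ± 0.53 (n = 6 each), with the lowest array from a male and the highest pair from females. FG-3149 minus IgG in PKCε hearts was 0.17 ± 0.13 (adjusted p = 0.500). Females alone gave 0.52 ± 0.14 (adjusted p = 0.0307) and males alone -0.18, and the test of the difference between the sexes gave 0.70 ± 0.25 (unadjusted p under 0.05, adjusted p = 0.411). The other probe set (1422986_at) gave -0.16 for PKCε minus FVB under FG-3149 (adjusted p = 0.00887) and -0.12 under IgG (adjusted p = 0.0648), with a residual r of 0.20 between the probe sets.

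Nrf1, which switches on nuclear genes for the respiratory chain, was the member that rose, and its probe sets disagreed. The lead probe set (1420978_at) ran from -0.27 to 1.11 (median 0.012) in PKCε FG-3149, -0.18 to 0.94 (median 0.25) in PKCε IgG, -0.37 to 0.22 (median -0.057) in FVB FG-3149 and -0.66 to 0.49 (median -0.035) in FVB IgG hearts. A few PKCε arrays were high, and the groups overlapped. The difference was 0.39 ± 0.15 under IgG (adjusted p = 0.0354) and 0.26 ± 0.14 under FG-3149 (adjusted p = 0.123). The other probe sets gave -0.16 (1424787_a_at, adjusted p = 0.195) and 0.23 (1434627_at, adjusted p = 0.0933) under IgG, and residual r between pairs of the 3 ran from -0.32 to 0.21. The mean of the 3 probe sets gave 0.16 (adjusted p = 0.0524), and the call was lost in 9 of 19 alternative settings.

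Tfam, which packages and transcribes the mitochondrial genome, was lower in PKCε hearts under both antibodies with small spreads. It ran from -0.28 to -0.0057 (median -0.11) in PKCε FG-3149, -0.42 to 0.027 (median -0.13) in PKCε IgG, 0.049 to 0.38 (median 0.19) in FVB FG-3149 and -0.17 to 0.33 (median 0.17) in FVB IgG hearts. Under FG-3149 the lines did not overlap. The differences were -0.30 ± 0.052 under FG-3149 (1.23-fold lower, adjusted p = 8.31e-06) and -0.26 ± 0.057 under IgG (1.19-fold lower, adjusted p = 0.000348). FG-3149 minus IgG in PKCε hearts was 0.022 ± 0.054 (adjusted p = 0.867, 95% interval -0.087 to 0.13).

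In FVB hearts, FG-3149 was compared with IgG to see how the members differed with the antibody without the transgene. All 10 members had values above 0, from 0.028 (Nrf1) to 0.25 (Esrrb), with a median of 0.083 against 0.025 for all genes. None was called by limma, 1 had an unadjusted p under 0.05 (Esrra), and 9.0% of all genes were called (4.43% of all genes as higher). This comparison shares its FVB IgG arrays with the IgG comparison of the lines. The antibody effect in PKCε minus that in FVB hearts was called for no member, and none had an unadjusted p under 0.05, against 3.86% of all genes called. For Ppargc1a this difference of effects was 0.34 ± 0.17 (adjusted p = 0.336, 95% interval -0.013 to 0.69), so the antibody effect on Ppargc1a was not shown to differ between the lines. Sex differences were tested in 8 cells of group and sex. The PKCε effect under IgG differed between females and males for no member (none at an unadjusted p under 0.05, background 0.0807% called), with the widest value for Ppara at -0.37 ± 0.22 (adjusted p = 0.662). For the antibody effect in PKCε hearts, no member was called (background 0.0161%), and Esrrb and Esrra (0.24 ± 0.11, adjusted p = 0.586) had an unadjusted p under 0.05.

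Lists of known targets, partners and upstream factors of the regulators were read beside the same background shares. Of 25 measured PPAR target genes, 19 fell and 1 rose in PKCε hearts under IgG and 16 fell under FG-3149. Of all genes, 21.5% and 25.5% were called lower in these comparisons. The list medians were -0.54 and -0.41, against -0.046 and -0.048 for all genes. The PPAR targets act in uptake, transport and β-oxidation of fatty acids. Cpt2, the inner membrane carnitine palmitoyltransferase, averaged -0.20 ± 0.19 in PKCε FG-3149 and -0.50 ± 0.33 in PKCε IgG hearts, against 0.52 ± 0.084 in FVB FG-3149 and 0.29 ± 0.29 in FVB IgG hearts. It differed by -0.84 ± 0.090 under IgG (1.78-fold lower, adjusted p = 5.61e-10) and by -0.72 under FG-3149 (adjusted p = 1.84e-09), while its other probe set gave -0.38 (adjusted p = 0.000218) and -0.29 (adjusted p = 0.00167). Pex11a, a peroxisome division factor, differed by -0.85 ± 0.11 under IgG (adjusted p = 1.17e-08), Ech1, an auxiliary enzyme of β-oxidation, by -0.78 ± 0.093 (adjusted p = 5.22e-09) and Acadm, the medium-chain acyl-CoA dehydrogenase, by -0.43 ± 0.051 (adjusted p = 4.1e-09). Under FG-3149, Slc25a20, the carnitine carrier, differed by -0.65 (adjusted p = 3.18e-08), Ech1 by -0.64 (adjusted p = 6.16e-08) and Acadvl, the very-long-chain dehydrogenase, by -0.41 (adjusted p = 8.92e-07). The 1 target that rose under IgG was the fatty acid transporter Slc27a1 at 0.42 ± 0.13 (adjusted p = 0.00883). No target was called higher in males alone, with the adipocyte marker mean or the Gapdh gap as a covariate, or without the 10 arrays with high atrial markers.

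Of 13 measured ERR and PGC-1 targets, 12 fell under IgG and 12 under FG-3149, and none rose. Of all genes, 21.5% and 25.5% were called lower. The list medians were -0.36 and -0.28, against -0.046 and -0.048 for all genes. Uqcrfs1, the Rieske protein of complex III, averaged -0.11 ± 0.082 in PKCε FG-3149 and -0.24 ± 0.17 in PKCε IgG hearts, against 0.31 ± 0.065 in FVB FG-3149 and 0.23 ± 0.10 in FVB IgG hearts. Its differences were -0.49 ± 0.041 under IgG (adjusted p = 1.05e-12) and -0.42 under FG-3149 (adjusted p = 4.59e-12). Idh3a, a subunit of isocitrate dehydrogenase, differed by -0.59 ± 0.075 and -0.71 and the complex IV subunit Cox5b by -0.41 and -0.35 (its other 5 probe sets ran from -0.28 to -0.11 under IgG and from -0.25 to -0.014 under FG-3149). Citrate synthase (Cs) differed by -0.36 under IgG and Atp5g1, a subunit of the ATP synthase rotor, by -0.31 under FG-3149. Of 15 measured genes of the nuclear respiratory factors and the mitochondrial genome, 10 fell under IgG and 9 under FG-3149, beside the same shares of all genes. Under FG-3149, 1 rose (the GABP subunit Gabpb1, 0.24 ± 0.069, adjusted p = 0.00431, named after its value was seen). The list medians were -0.30 and -0.23. Under IgG the lower genes were led by Tfb2m, a mitochondrial transcription factor (-0.43 ± 0.053), Top1mt, the mitochondrial topoisomerase (-0.53 ± 0.086), Mterf3 (-0.39 ± 0.071) and Polrmt, the mitochondrial RNA polymerase (-0.55 ± 0.10). Under FG-3149 they were led by Mterf4 (-0.34), Tefm (-0.36), Alas1, the first enzyme of haem synthesis (-0.45), and Polrmt (-0.48). Fitted in males alone, 4 fell under IgG and 5 under FG-3149.

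**Figure D4:**
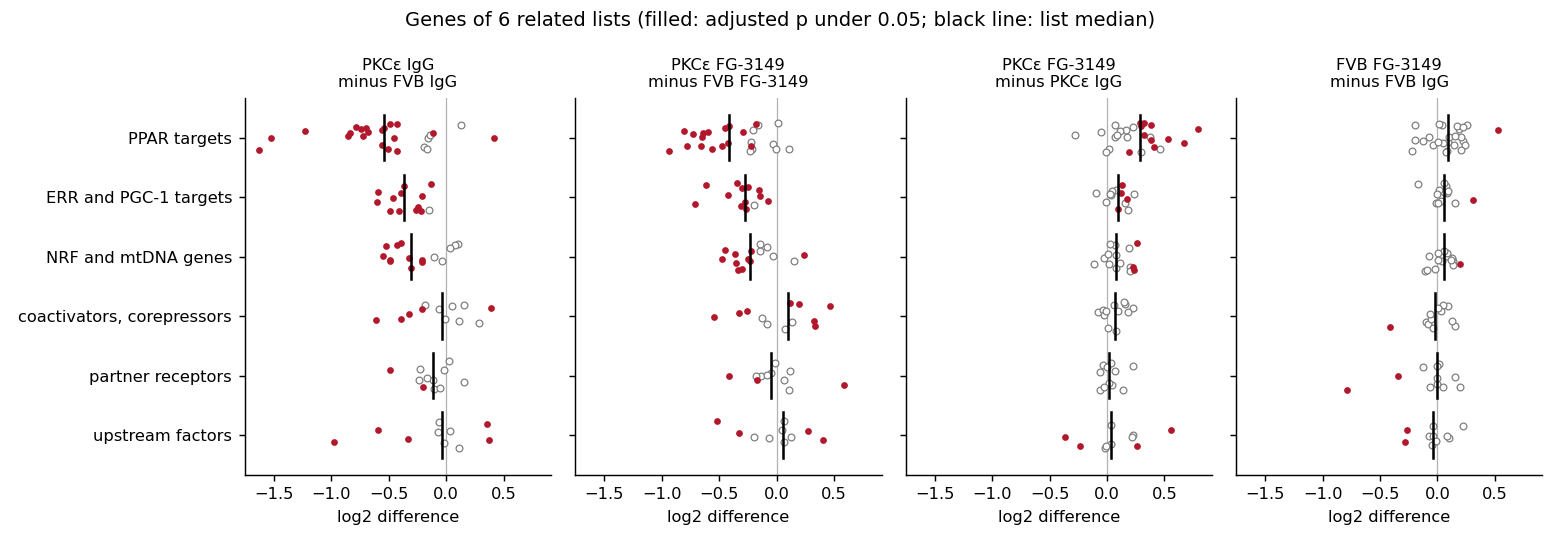
Log2 difference of each measured gene of the 6 pathway lists in 4 comparisons of group means. Filled points passed an adjusted p of 0.05 and the black line is the list median. For the 25 PPAR targets the median is -0.54 and -0.41 in the comparisons of the lines and 0.29 for FG-3149 minus IgG in PKCε hearts.

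With FG-3149 in PKCε hearts, 11 of the 25 PPAR targets rose and none fell, with a median of 0.29 against 0.016 for all genes and 5.08% of all genes called higher. Hadha, the α subunit of the mitochondrial trifunctional protein, averaged 0.0026 ± 0.25 with FG-3149 and -0.53 ± 0.37 with IgG, a difference of 0.53 ± 0.12 (adjusted p = 0.00288). Eci1, an enoyl-CoA isomerase, rose by 0.41 ± 0.087 (adjusted p = 0.0019) and Vldlr, a lipoprotein receptor, by 0.38 ± 0.086 (adjusted p = 0.00334). The other Vldlr probe sets gave 0.35 (adjusted p = 0.00273), 0.27 (adjusted p = 0.0506) and 0.10 (adjusted p = 0.296). Lipoprotein lipase (Lpl) rose by 0.32 ± 0.066 (adjusted p = 0.00145), and its other probe set gave 0.072 (adjusted p = 0.224). Of the 13 ERR and PGC-1 targets 4 rose by small amounts: Cs by 0.17 ± 0.047, Uqcrfs1 by 0.13 ± 0.039, the ATP synthase subunit Atp5b by 0.099 ± 0.031 and the malate dehydrogenase Mdh2 by 0.12 ± 0.039 (adjusted p from 0.0160 to 0.0496). The other Mdh2 probe set gave 0.044 (adjusted p = 0.550). Of the 15 genes of the third list, Tfb2m (0.23 ± 0.050, adjusted p = 0.00219), Gabpa, the DNA-binding subunit of GABP (0.26 ± 0.071) and Mterf3 (0.23 ± 0.067) rose. These counts changed when a few libraries were left out and in males alone. The limma test of a difference between the sexes in this antibody effect called no gene of these 3 lists. Of all genes, 0.0161% were called. In PKCε IgG hearts, sex also went with mouse number. For the PPAR targets, 11 genes became 0 in males alone and 11 in females alone, 7 without PKCε IgG replicate 9, 5 without both arrays with lung markers, 4 without the 10 arrays with high atrial markers, 3 with the Gapdh gap and 8 with the clock score as a covariate. For the ERR and PGC-1 targets, 4 genes became 0 in males alone, without PKCε IgG replicate 9, without the lung or atrial arrays, or with the clock score as a covariate. They became 1 or 2 without any 1 of PKCε FG-3149 replicates 2, 5, 7, 8, 9 and 12 or PKCε IgG replicates 1, 5, 6, 7 and 10, and 1 with the array median subtracted. For the third list, 3 genes became 0 in males alone and with the Gapdh gap, and 1 without the lung arrays. In FVB hearts, 1 of 25, 1 of 13 and 1 of 15 genes of the 3 lists rose with FG-3149, counts near the 4.43% of all genes called higher. They were Slc27a1 (0.53 ± 0.12, adjusted p = 0.00479), the mitochondrial superoxide dismutase Sod2 (0.31, adjusted p = 0.0373, but 0.12 and 0.033 on its other probe sets, adjusted p = 0.197 and 0.770) and Mterf4 (0.20, adjusted p = 0.00947). In the same comparison Adipoq differed by -2.25 ± 0.47 (adjusted p = 0.00136) and Myl7 by -5.01 (adjusted p = 0.0178). With the adipocyte marker mean as a covariate, and without the 10 arrays with high atrial markers, 0 genes of each of these 3 lists were called higher in FVB hearts, and the ERR and PGC-1 count was lost in 10 of 19 alternative settings.

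Coactivators, corepressors and energy sensors were called in both directions. Of 12 measured, 1 rose and 4 fell in PKCε hearts under IgG, a share near the 42.2% of all genes called, and 5 rose and 3 fell under FG-3149, where 47.0% of all genes were called, with medians of -0.035 and 0.097. The 5 higher calls became 2 in females alone, with the Gapdh gap or with the clock score as a covariate, and 1 in males alone. Sirt3, a mitochondrial deacetylase, fell by 0.33 ± 0.053 on the log2 scale under IgG (adjusted p = 2.36e-06) and by 0.32 under FG-3149. Pprc1, the third coactivator of the PGC-1 family, had the opposite sign to Ppargc1a, rising by 0.39 ± 0.085 under IgG (adjusted p = 0.000212) and by 0.32 under FG-3149. Lpin1, a coactivator of PPARα with Ppargc1a, fell by 0.39 ± 0.084 under IgG (adjusted p = 0.000195), and the coactivator Ncoa3 rose by 0.47 under FG-3149 (adjusted p = 6.87e-06). Med1 fell on its lead probe set (-0.61 and -0.55), but its other probe sets ran from -0.45 to 0.22 under IgG. None of the 12 was called for FG-3149 in PKCε hearts, and in FVB hearts the corepressor Nrip1 fell by 0.41 ± 0.082 (adjusted p = 0.000864).

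Of 11 measured partner and related receptors, 2 fell and none rose in PKCε hearts under IgG, where 42.2% of all genes were called. Under FG-3149, 2 fell and 1 rose, where 47.0% were called, so both counts were below the shares of all genes. Rxrg, the RXR of striated muscle, was lower in PKCε hearts under IgG (-0.49 ± 0.097, adjusted p = 7.04e-05) and under FG-3149 (-0.42, adjusted p = 0.000184). The thyroid hormone receptor Thrb fell by 0.20 ± 0.084 under IgG (adjusted p = 0.0479). Under FG-3149 Thra had -0.17 (adjusted p = 0.0154, but 0.019 on its other probe set) and Nr2f2, the orphan receptor COUP-TFII, had 0.59 (adjusted p = 0.0132, but 0.39 and 0.19 on its other probe sets). None was called for the antibody in PKCε hearts. In FVB hearts Nr2f2 (-0.78 ± 0.21, but -0.19 and 0.0048 on its other probe sets) and Nr2f1 (-0.35, adjusted p = 0.0496) fell, where 9.0% of all genes were called. This count of 2 changed in 14 of 19 alternative settings. It became 0 with the adipocyte marker mean as a covariate and without the arrays with high atrial markers. Of 10 factors known to act upstream of the network, 2 rose and 3 fell under IgG, and 2 rose and 2 fell under FG-3149, near the shares of all genes. Klf15, a glucocorticoid-responsive regulator of lipid use in heart muscle, had the largest difference between the lines under IgG among the named genes of that list. It averaged -0.22 ± 0.29 in PKCε FG-3149 and -0.78 ± 0.30 in PKCε IgG hearts, against 0.30 ± 0.26 in FVB FG-3149 and 0.24 ± 0.21 in FVB IgG hearts. Klf15 differed by -0.97 ± 0.11 under IgG (1.96-fold lower, adjusted p = 1.01e-09), by -0.52 under FG-3149 (adjusted p = 3.39e-05) and by 0.56 ± 0.10 for FG-3149 in PKCε hearts (adjusted p = 0.000435). The muscle factor Mef2a fell (-0.60 and -0.33, with its other probe sets between -0.28 and -0.098 and between -0.25 and 0.089) and Mef2c rose (0.37 and 0.40) in PKCε hearts. With FG-3149 in PKCε hearts the lead probe sets of Mef2c (-0.23, adjusted p = 0.0441) and Atf2 (0.26, adjusted p = 0.0443) passed, but none of the other 4 Mef2c probe sets (-0.16 to -0.041) or the other 3 Atf2 probe sets (0.035 to 0.16) did. For the antibody in PKCε hearts, 2 genes of this list rose and 2 fell, where 8.82% of all genes were called. These counts changed in 11 and 10 of 19 alternative settings. Sp1 was higher in PKCε hearts (0.36 and 0.27) and lower with FG-3149 in PKCε hearts (-0.36), but its other probe set gave 0.014 (adjusted p = 0.908) for the line difference under IgG and 0.093 (adjusted p = 0.561) for the antibody.

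Likeness between genes was measured as Pearson's r over the 44 arrays after the means of the 8 cells of group and sex were removed, as a description of arrays that share their hybridisation and tissue content. Ppara was most like Zfp768 (r = 0.84, Spearman's rho = 0.78), Noct (r = 0.80, rho = 0.76) and Wnk2 (r = 0.77, rho = 0.78). Ppargc1a was most like Gtf2b (r = 0.71, rho = 0.65), Retreg1 (r = 0.66, rho = 0.66) and Baiap2l1 (r = 0.65, rho = 0.58). Esrra was most like Mtfp1 (r = 0.79, rho = 0.73), Alas1 (r = 0.76, rho = 0.67) and Arl2 (r = 0.74, rho = 0.77). Without the 2 arrays farthest from the median of the member, r for these 9 pairs stayed between 0.53 and 0.81. Among the members, Ppara was most like Ppargc1b (r = 0.71), followed by Esrra (r = 0.56) and Ppargc1a (r = 0.48), whereas Ppargc1a and Esrra had an r of 0.12.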

How the data were processed

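Each of 44 left ventricles was hybridised to its own array. Per the series' design text, the authors used GCRMA on the scans and a per-gene median normalisation in GeneSpring GX 7.3.1, and the deposited values are linear ratios. The median of each of the 22690 probe sets lay within 0.001 of 1, ratios ran from 0.01 to 1104, and array medians from 0.954 to 1.032. The per-gene scaling removes brightness, so detection cannot be judged.

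Log2 ratios were fitted with limma 3.58.1 (lmFit and eBayes, R 4.3.3) with terms for group and sex on all 44 arrays, and with 8 cells of group and sex for sex differences. Tests were two-sided, and p-values were adjusted by Benjamini-Hochberg over 12394 genes and called under 0.05. Probe sets of 1 gene (20393, while 691 had several genes and 1606 none) were used, and the one with the largest SD led for 4958 genes with more than 1. Fits were tested on simulated data.

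Samples were grouped by title. The members and gene lists were chosen with earlier results of these data known. Named genes are the members, up to 4 called genes of lowest p per list and comparison, the 3 genes most like Ppara, Ppargc1a and Esrra, and Adipoq, Myl7 and Sftpc. Listed genes without a probe set of 1 gene are not used here. Alternatives changed scaling, probe set choice, sex, covariates, floors, pseudocount, arrays and the threshold, and left out each array. The clock score was added after seeing the data. Replicate numbers came from the titles. Same-numbered arrays of compared groups had correlations of their deviations from -0.497 to 0.239, and none matched best with its own number, so the numbers were not taken as pairs.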

Additional observations from a re-analysis of the deposited data

Results flagged for a closer look

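Dixon's test of the highest and lowest array was made on 36 combinations of probe set and group of 10 arrays, with a critical gap share of 0.466, and chance alone gives about 1 in 20. It singled out 3, all in FVB IgG hearts, while the FG-3149 groups of 12 arrays were not tested. Ppard was highest at 0.361 in replicate 6, where the next array had 0.118. Ppargc1a on 1460336_at was also highest in replicate 6, at 0.622 with the next at 0.281. Esrrb on 1422986_at was highest in replicate 10, at 0.447 with the next at 0.0866.

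The antibody effect differed between the lines for 2 genes of the pathway lists, where 3.86% of all genes were called. They were 1 of the 25 measured PPAR targets and 1 of the 12 coactivators, corepressors and sensors. No gene was called in the other lists, of 11, 10, 13 and 15 measured genes. For Vldlr the effect in PKCε minus that in FVB hearts was 0.575 (limma, adjusted p = 0.0031), and its other probe sets gave 0.51 (adjusted p = 0.0133), 0.15 and 0.022. Vldlr averaged 0.039 ± 0.19 in PKCε FG-3149 and -0.34 ± 0.31 in PKCε IgG hearts, and 0.024 ± 0.17 in FVB FG-3149 and 0.17 ± 0.27 in FVB IgG hearts. For Nrip1 the difference of effects was 0.387 (adjusted p = 0.0468), and its other probe set gave 0.26 (adjusted p = 0.255). Nrip1 averaged 0.0078 ± 0.10 in PKCε FG-3149 and 0.036 ± 0.16 in PKCε IgG hearts, and -0.19 ± 0.23 in FVB FG-3149 and 0.22 ± 0.25 in FVB IgG hearts.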

How the results depend on the processing

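No difference of a member reversed its sign among called values in the alternatives run. The number of members called for PKCε minus FVB under IgG ran from 3 in males alone to 6 (6 as reported), and under FG-3149 from 3 in males alone to 7 (6 as reported). For FG-3149 minus IgG in PKCε hearts it was 2 in females alone (Ppargc1a and Esrrb) and 0 in males alone (1 as reported). When each array was left out in turn, the counts ran from 4 to 7 under IgG, from 6 to 7 under FG-3149 and stayed at 1 for the antibody in PKCε hearts and at 0 in the other comparisons. The fit with the replicate number as a block called 6, 6, 1 and 0 members in these 3 comparisons and in FVB hearts, and changed no count of members. Its difference for Ppargc1a with FG-3149 in PKCε hearts was 0.56 (adjusted p = 0.00899), but it left 0 of the 4 ERR and PGC-1 targets called there. Under FG-3149, Ppargc1a was lost in males alone (-0.47, adjusted p = 0.0909), Pparg in each sex alone, and Ppard in each sex alone and with the clock score. Rxra passed there with the mean of its probe sets (-0.12, adjusted p = 0.00674). Males made up 3 of the 10 FVB IgG mice, which limits fits of males alone. One FVB FG-3149 mouse labelled female had a high level of a Y-linked gene and was kept as labelled.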
